A study of Mus musculus with 4 samples.

Results

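CC chemokines are small secreted proteins that attract leukocytes, and 9 of their genes were followed here in TAMs (tumor-associated macrophages): Ccl2, Ccl3, Ccl4, Ccl6, Ccl7, Ccl8, Ccl9, Ccl12 and Ccl24. The members were the entries of the count table whose Ensembl identifier maps to these symbols in GENCODE release M21, which found 9 of 9 among the 54146 genes listed. TAMs were sorted by FACS as live CD11b+ F4/80+ cells, after magnetic enrichment of CD45+ cells, from subcutaneous MCA205 tumors, a mouse fibrosarcoma model. The hosts were female C57BL/6 mice of 8 to 16 weeks, and both groups carried the same injected tumor cells. The control group (labelled vehicle) has 2 libraries, and the propranolol group has 2 libraries from mice that drank propranolol, a nonselective beta blocker, at 0.5 g/L from the day of inoculation. Polyadenylated RNA was sequenced, and the deposited counts added up to 13798249 and 23018142 in control replicates 1 and 2 and to 39818103 and 16424081 in propranolol replicates 1 and 2. The paper's figure legend describes 2 biological replicates. The labels do not say whether libraries came from separate mice or from pools. The p-values set the group difference against the spread between libraries of a group, and whether that is a spread between mice or between pools is not known.

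CC chemokines take their name from adjacent cysteines near the start of the mature protein, and they act on G protein-coupled receptors that guide cells along a gradient. Ccl2, Ccl7, Ccl8 and Ccl12 belong to the monocyte chemoattractant group, and Ccl2 and Ccl7 are known ligands of CCR2, the receptor that brings monocytes into tissue. Ccl3 and Ccl4 are macrophage inflammatory proteins, Ccl6 and Ccl9 are ligands of CCR1 found in rodents, and Ccl24 is an eotaxin that attracts eosinophils through CCR3.

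The coding sequence around the paired cysteines is shown for 4 genes that the comparison turns on, to show the motif that defines the family and how far neighbours and relatives differ around it. Each stretch of 54 bases comes from a GENCODE release M21 transcript, is written 5′ to 3′ on the coding strand, and has the paired cysteine codons in capitals.
Ccl2: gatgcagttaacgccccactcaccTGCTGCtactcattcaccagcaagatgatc
Ccl12: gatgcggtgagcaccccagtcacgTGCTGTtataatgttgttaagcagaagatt
Ccl7: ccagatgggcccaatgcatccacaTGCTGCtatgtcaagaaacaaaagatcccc
Ccl24: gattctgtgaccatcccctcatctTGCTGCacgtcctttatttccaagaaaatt
Base by base, with the cysteine codons lined up and no gaps allowed, the Ccl2 stretch shared 33 of 54 bases with Ccl12, 30 with Ccl24 and 23 with Ccl7. A codon gained or lost beside the cysteines lowers such a count, so these counts do not rank how related the genes are. Over the longest transcript of each member, no run of 50 bases occurred in a transcript of another gene for 8 of the 9 genes. For Ccl9, 59 of 2957 such runs (1.995%) did, and 463 other genes carry at least 1 of these runs.

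On GRCm38, 8 of the 9 genes lie on chromosome 11 in 2 groups. Ccl2 (82035571 to 82037453, plus strand), Ccl7 (82045712 to 82047525, plus), Ccl12 (82101845 to 82103400, plus) and Ccl8 (82115185 to 82116799, plus) form the first group. Ccl9 (83572919 to 83578636, minus), Ccl6 (83587882 to 83593087, minus), Ccl3 (83647844 to 83649355, minus) and Ccl4 (83662584 to 83664683, plus) form the second. Ccl24 lies apart on chromosome 5 (135569937 to 135573049, minus). Values are those of annotated exons. Gm17268 spans Ccl2 and E230016K23Rik spans Ccl6 on the opposite strand, and neither shares an exon base with its partner. Gm17268 had 0 counts.

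All 9 genes were detected in every library and passed the filter on low counts, with Ccl24 the lowest at 71 counts in control replicate 1. Levels between genes were compared as TPM, which divides by the length of all exons. Ccl12, a ligand of CCR2 in mice, had the highest level in each of the 4 libraries, with 1264 and 1475 TPM in the control libraries and 1515 and 1140.4 TPM in the propranolol libraries. It ranked between 57 and 90 among all genes of a library by TPM. Over the 4 libraries the order of the mean level was Ccl12 (1348 TPM), Ccl8 (909), Ccl2 (906), Ccl7 (559), Ccl6 (437), Ccl4 (302), Ccl3 (252), Ccl9 (235) and Ccl24 (19.8). The ranges over the 4 libraries did not overlap between Ccl12 and Ccl8, between Ccl6 and Ccl4, or between Ccl9 and Ccl24. All other neighbours in the order overlapped, and the range of Ccl12 also overlapped that of Ccl2.

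**Figure D1:**
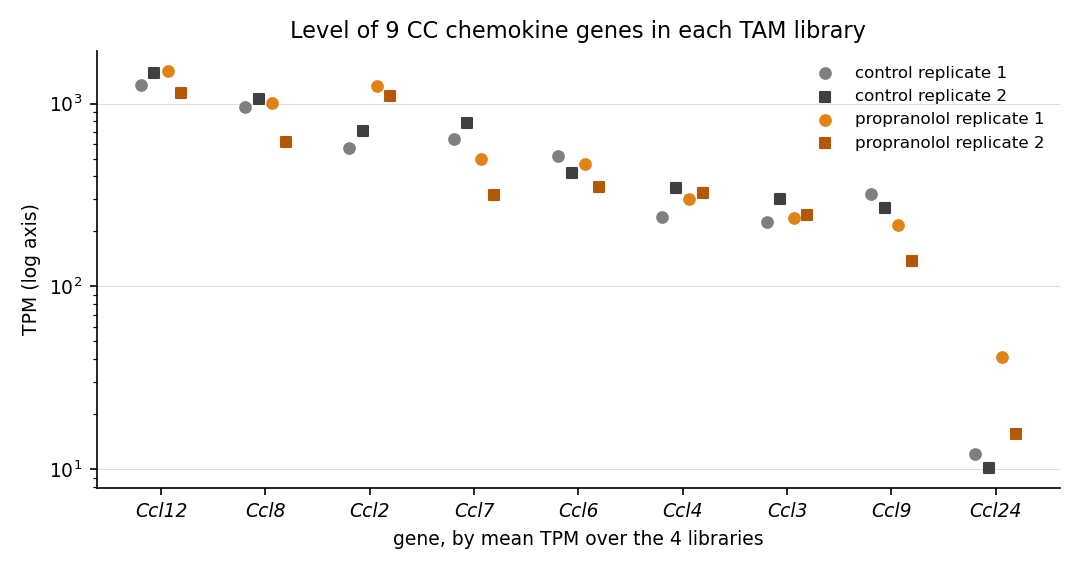
TPM (log axis) of each of the 9 genes, ordered by mean level, with 1 point per library. Ccl12 is highest in every library, and Ccl24 lies below all other genes, between 10.2 and 41.3 TPM.

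The summed level of the 9 genes was 4741 and 5360 TPM in the control libraries and 5520 and 4249 TPM in the propranolol libraries, so the propranolol libraries held both the highest and the lowest sum. The mean was 5051 ± 437 TPM in control and 4885 ± 898 TPM in propranolol libraries (SD, n = 2 each), a difference smaller than the spread within the groups. The make-up of this sum differed more. Ccl2 accounted for 12.1% and 13.2% of it in control libraries and for 22.5% and 25.9% after propranolol. Ccl7 went the other way, with 13.5% and 14.6% in control and 8.998% and 7.40% in propranolol libraries. Ccl12 kept a share between 26.7% and 27.5% in all 4 libraries. Among the 9 genes, Ccl2 ranked 4 by level in both control libraries and 2 in both propranolol libraries. No test was made of the sum or the shares, and 2 libraries against 2 cannot give an exact permutation p below 0.333.

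**Figure D2:**
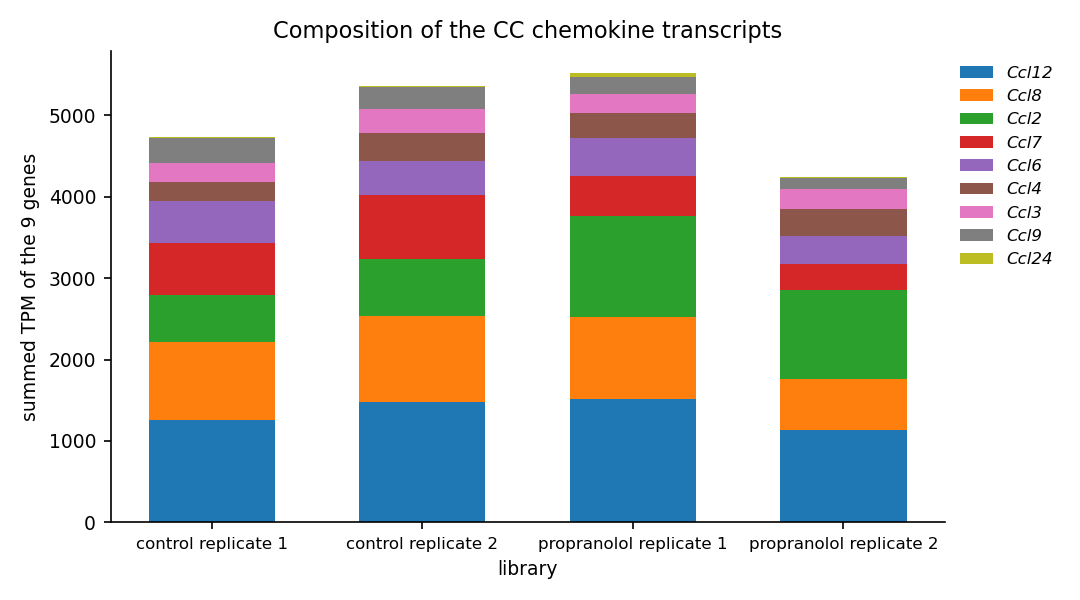
Stacked bars of the TPM of the 9 genes in each library, starting at 0, with the height of a bar the summed level. The Ccl2 section grows from 12.1% and 13.2% of the sum in control to 22.5% and 25.9% after propranolol, and the bar heights overlap between the groups.

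For the comparison of TAMs from propranolol treated and control mice, CPM is a count scaled by the library size after TMM normalization. Changed genes were those with more than a 1.5-fold difference and an adjusted p under 0.05 in the edgeR quasi-likelihood test. By this rule 2 of the 9 genes rose, Ccl2 and Ccl24, and 0 fell, against 12.2% of the 14688 tested genes that rose and 15.6% that fell (27.8% in either direction). The share of members changed, 22.2%, was thus near the share over all genes. At any fold, 3 of 9 had an adjusted p under 0.05 in edgeR, against 42.2% of tested genes. In 5 of the 9 genes the libraries of the groups did not overlap, against 72.6% of tested genes. For counts under other settings given further on, the share of genes changed was 22.9% and 29.1% without control replicates 1 and 2 and 27.1% and 22.3% without propranolol replicates 1 and 2. It was 25.7% with DESeq2, 27.7% with DESeq2 size factors, 15.8% with no filter on low counts, 31.1% with a stricter one, 29.7% with a replicate block and 4.96% at a log2 fold change above 1.5. The median log2 fold change of the 9 genes was 0.12, against -0.02 over all tested genes. With the GC correction described further on, these medians were 0.41 and 0.09. In these bulk samples, fewer cells of a type and less RNA per cell cannot be told apart.

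In the edgeR fit to all 4 libraries, Ccl2 was the one monocyte chemoattractant gene that changed. It had 199.5 and 238 CPM in the control libraries and 513 and 436 CPM in the propranolol libraries, so both propranolol libraries lay well above both control libraries. The mean rose from 219 ± 27.3 CPM to 475 ± 54.1 CPM (SD, n = 2 each), a 2.17-fold rise (log2 fold change 1.12, standard error (SE) 0.12, adjusted p = 0.000167 in edgeR). With any 1 library left out, the log2 fold change of Ccl2 stayed between 0.998 and 1.27. Ccl7, which lies 8.26 kb downstream and shares CCR2 with it, had 157 and 186 CPM in control and 144 and 87.7 CPM in propranolol libraries. Both propranolol libraries of Ccl7 lay below both control libraries, the first only by a small margin. Its log2 fold change was -0.56 (SE 0.19, adjusted p = 0.0394 in edgeR), under the fold threshold, and the adjusted p was 0.211 in DESeq2. It passed without propranolol replicate 1 (-0.97) and without control replicate 1 (-0.62). The ratio of Ccl2 to Ccl7 in TPM was 0.894 and 0.902 in control and 2.50 and 3.503 after propranolol, with no overlap between the groups.

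Ccl12, next in the same group of genes, had 207 and 235 CPM in the control libraries and 295 and 213 CPM in the propranolol libraries. The groups overlapped, and the log2 fold change was 0.20 (SE 0.14, adjusted p = 0.293 in edgeR). Without propranolol replicate 1 the value for Ccl12 was -0.05. With the GC correction described further on it was 0.84, and Ccl12 was called higher. Ccl8, which in mice is a ligand of CCR8, had 149 and 161 CPM in control and 186 and 109.9 CPM in propranolol libraries. Here the propranolol libraries lay on either side of the control libraries, with a log2 fold change of -0.06 (SE 0.19, adjusted p = 0.819 in edgeR). Without propranolol replicate 1 the value for Ccl8 was -0.49 and without propranolol replicate 2 it was 0.29, so the direction rests on which of these libraries is kept.

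Neither of the macrophage inflammatory protein genes passed the test. Ccl3 had 52.4 and 68.0 CPM in the control libraries and 65.5 and 65.9 CPM in the propranolol libraries, and the latter fell within the control range. Its log2 fold change was 0.12 (SE 0.13, adjusted p = 0.493 in edgeR). Ccl4 had 48.3 and 67.3 CPM in control and 72.2 and 74.3 CPM in propranolol libraries. The groups of Ccl4 did not overlap, but the control libraries lay further apart than the second of them lay from the propranolol libraries. The log2 fold change was 0.33 (SE 0.15, adjusted p = 0.0945 in edgeR), and it was 0.61 without control replicate 2, where it passed.

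Of the CCR1 ligands, Ccl6 had 282 and 222 CPM in the control libraries and 303 and 219.8 CPM in the propranolol libraries. Replicates within each group differed more than the groups, with a log2 fold change of 0.06 (SE 0.16, adjusted p = 0.803 in edgeR). The value for Ccl6 turned to -0.09 without control replicate 2 and to -0.19 without propranolol replicate 1. With the GC correction described further on it was 0.43, with no call. Ccl9 had 296 and 241 CPM in control and 239 and 147 CPM in propranolol libraries. Control replicate 2 and propranolol replicate 1 were nearly equal, although the groups did not overlap. The log2 fold change of Ccl9 was -0.47 (SE 0.19, adjusted p = 0.0739 in edgeR). It passed the test at -0.87 without propranolol replicate 1 and at -0.60 without control replicate 2.

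Ccl24 was the least abundant of the 9 genes and in the fit to all 4 libraries had the largest fold change among them. Control replicates 1 and 2 held 71 and 98 counts, and propranolol replicates 1 and 2 held 704 and 107. On the scale of CPM these were 4.79 and 3.91 in control and 19.4 and 7.01 in propranolol libraries. Both propranolol libraries lay above both control libraries, and propranolol replicate 1 was 2.76 times propranolol replicate 2. The fitted rise was 3.12-fold (log2 fold change 1.64, SE 0.40, adjusted p = 0.00841 in edgeR). The rise of Ccl24 rests on propranolol replicate 1, since leaving it out gave 0.70 and no call (adjusted p = 0.133 in edgeR), and leaving out propranolol replicate 2 gave 2.20.

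**Figure D3:**
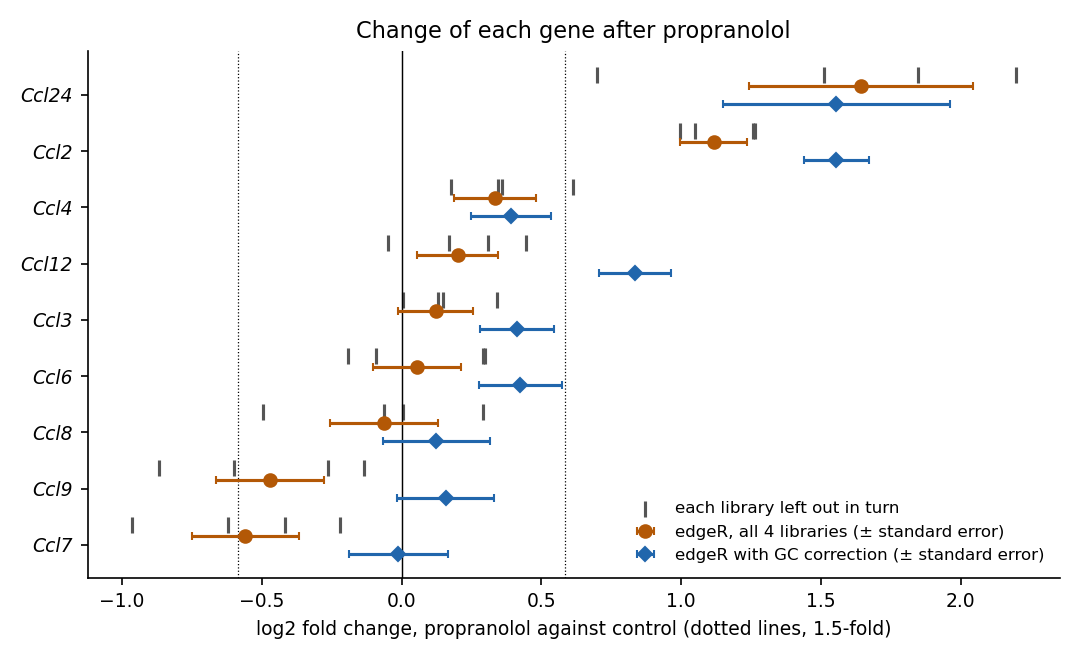
Log2 fold change of each gene after propranolol, with circles for the edgeR fit to all 4 libraries and diamonds for the fit with GC correction (bars, standard error), and vertical marks for fits with 1 library left out. Ccl2 stays between 0.998 and 1.27 over the vertical marks, while Ccl24 spans 0.70 to 2.20.

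The fold changes of all tested genes were related to gene GC content (Spearman correlation 0.577 across 14681 genes, which are not independent replicates). This bears on the chemokines, since 8 of the 9 had a GC content below the median of tested genes (49.6%), from 42.1% in Ccl12 to 49.2% in Ccl4, with Ccl24 at 51.2%. When a smooth trend with GC content was removed from each library before the same edgeR test, 12.6% of genes were changed (7.64% higher and 4.97% lower). Of the changed genes, 60.6% were higher, against 44.0% without the correction, and the median of all tested genes moved by 0.11 on the log2 scale. After this correction 3 of the 9 chemokine genes were changed, all higher. Ccl2 was at 1.56 (SE 0.12, adjusted p = 0.000226 in edgeR) and Ccl24 at 1.56 (SE 0.41, adjusted p = 0.0226 in edgeR). Ccl12 joined them with 0.84 (SE 0.13, adjusted p = 0.00238 in edgeR). Relative to the shift of the median, these values were 1.45, 1.45 and 0.73. Ccl7 had -0.01, and Ccl9 and Ccl8 turned to 0.16 (SE 0.17, adjusted p = 0.555 in edgeR) and 0.12 (SE 0.19, adjusted p = 0.681 in edgeR). Relative to the shift of the median, Ccl9 and Ccl8 were at 0.05 and 0.02. The sign of these last 2 genes thus depends on this step, and their corrected values were within their standard errors of 0.

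The values were also set against position, without a test of the differences between genes. In the first chromosome 11 group, Ccl2 and Ccl7 lie 8.26 kb apart and differed in sign, with log2 fold changes of 1.12 and -0.56, and after GC correction Ccl7 was at -0.01. Ccl12 and Ccl8 lie 11.8 kb apart with 0.20 and -0.06, and with 0.84 and 0.12 after GC correction. In the second group, Ccl9 and Ccl6 lie 9.24 kb apart with -0.47 and 0.06, and Ccl3 and Ccl4 lie 13.2 kb apart with 0.12 and 0.33. After GC correction Ccl9, Ccl6, Ccl3 and Ccl4 were at 0.16, 0.43, 0.41 and 0.39. Within 50 kb of a member there were 17 other annotated genes, of which 4 were tested and 0 were changed by the edgeR test. At an adjusted p under 0.05 in edgeR, Hip1, 24.8 kb from Ccl24, had a log2 fold change of 0.52 (adjusted p = 0.00187). The other 3 were E230016K23Rik (0.85, adjusted p = 0.269 in edgeR), Wfdc17 (-0.36, adjusted p = 0.0624 in edgeR) and Ccl5 (-0.11, adjusted p = 0.614 in edgeR).

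**Figure D4:**
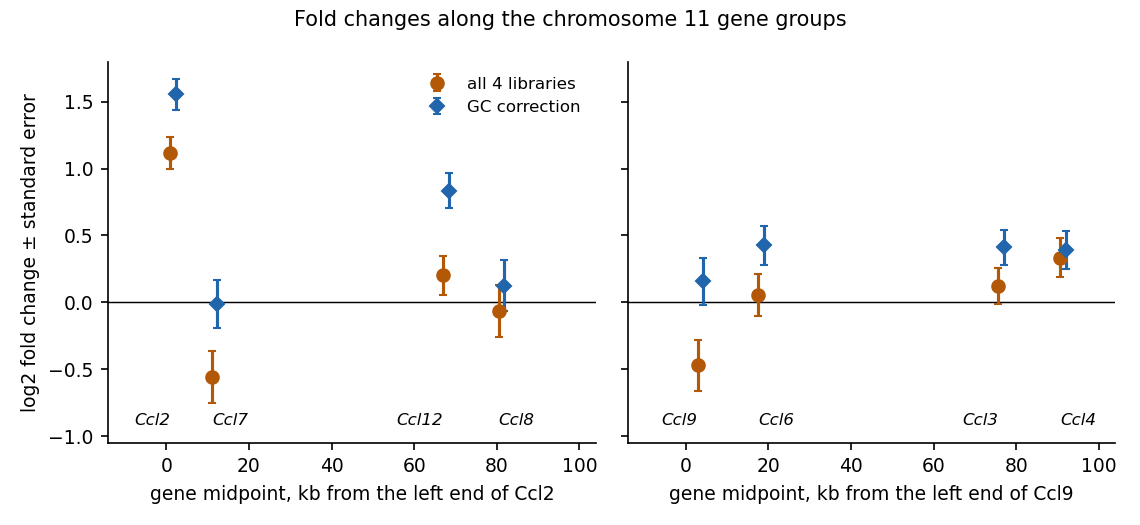
Log2 fold change (bars, standard error) of the chromosome 11 genes against distance in kb from the left end of Ccl2 (left panel) and of Ccl9 (right panel), with circles for the fit to all 4 libraries and diamonds, drawn slightly to the right, for the fit with GC correction. Ccl2 lies at 1.12 and its neighbour Ccl7 at -0.56.

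Promoter sequence was available for 5 members in the RefSeq-based table used here (GRCm38.p6), from 250 bases before to 50 after the start. The 60 bases before the start are printed for the 4 members whose window holds a motif of the list there, to show the letters matched, which are in capitals.
Ccl12, chr11:82101785-82101844, plus strand: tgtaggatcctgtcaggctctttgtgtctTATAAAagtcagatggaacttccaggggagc
Ccl8, chr11:82115125-82115184, plus strand: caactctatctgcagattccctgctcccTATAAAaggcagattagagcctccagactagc
Ccl9, chr11:83578637-83578696, minus strand: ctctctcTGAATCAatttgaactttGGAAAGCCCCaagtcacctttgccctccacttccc
Ccl3, chr11:83649379-83649438, minus strand: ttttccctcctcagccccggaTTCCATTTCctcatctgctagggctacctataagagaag
The capitals in Ccl12 and Ccl8 mark TATAAA, 31 and 32 bases before the start, which 13.6% of the 32851 promoters hold on either strand. In Ccl9 they mark the AP-1 motif TGANTCA (7.81% of promoters) and, on the opposite strand, the kappa-B consensus (8.46%). In Ccl3 they mark the ISRE core GAAANNGAA, also on the opposite strand (8.56%). TATAAA also occurred at 3 places farther from the start in the window of Ccl9, of which 2 overlap. The CRE motif TGACGTCA (1.79% of promoters), its core TGACG (20.8%), the STAT6 spacing (6.95%), the GAS motif TTCNNNGAA (8.30%) and the C/EBP motif TTGCNNAAT (2.40%) were found in 0 of the 5 windows, on either strand.

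Of the 15 other CC ligands listed, 14 were in the table and 5 were tested. Ccl1, a ligand of CCR8, fell, with 1.69 and 2.39 CPM in control and 0.633 and 0.327 CPM in propranolol libraries (log2 fold change -2.01, SE 0.55, adjusted p = 0.0149 in edgeR). Its call was lost without control replicate 2 (-1.72, adjusted p = 0.121 in edgeR) and without propranolol replicate 2 (-1.66, adjusted p = 0.0566 in edgeR). Ccl5, an attractant of T cells, had 34.1 and 35.2 CPM in control and 37.0 and 26.9 CPM in propranolol libraries. Its mean level was 120.0 TPM in control and 93.4 TPM in propranolol libraries, below those of 8 of the 9 members. Ccl22, Ccl17 and Ccl25 had log2 fold changes of -0.69, -0.16 and 0.21 and did not pass. Ccl22 passed without propranolol replicate 1 (-1.45), and after the GC correction described above Ccl25 was at 1.19 and passed. The eotaxin Ccl26 and the ligands Ccl19, Ccl20, Ccl21b and Ccl27b had 0 counts in the 4 libraries. The median log2 fold change of the 5 tested ligands was -0.16.

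Of 15 receptors, 9 were tested and 0 were changed in edgeR. Ccr2, the receptor of Ccl2 and Ccl7, had 454 and 397 CPM in control and 306 and 262 CPM in propranolol libraries. Its propranolol libraries lay below the control libraries, with a log2 fold change of -0.58 (adjusted p = 0.00249 in edgeR), just under the fold threshold, and one of 0.36 after GC correction. It was called lower without control replicate 2 (-0.66) and without propranolol replicate 1 (-0.69). Ccr1 had a log2 fold change of -0.31 (adjusted p = 0.0934 in edgeR), and after GC correction it had 0.66 and was called higher. Ccrl2, a nonsignalling receptor, had a log2 fold change of 0.21. Ccr3, the receptor of Ccl24, had between 1.05 and 2.63 CPM in a library. The median over the 9 tested receptors was -0.25, and 0.33 after GC correction.

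Downstream of the receptors, 7 of 24 tested signalling genes rose and 2 fell, with a median log2 fold change of 0.36 (0.28 after GC correction). Gnai2, the G protein subunit that couples these receptors, rose from 1179 and 1114 CPM in control to 2138 and 2197 CPM in propranolol libraries (log2 fold change 0.92, adjusted p = 0.000103 in edgeR). The other risen genes were Grk2 (0.85) and Grk6 (0.59), kinases of activated receptors, Gnb2 (0.81), Arrb2 (0.76), Plcb3 (0.71) and Rac2 (0.64, and 0.55 with no call without propranolol replicate 1). Rgs1 (-1.01, but 0.39 after GC correction) and Rgs2 (-0.66), which shorten G protein signals, fell. Prex1 (0.51), Gnb1 (0.48), Vav1 (0.58) and Pik3r5 (0.46) did not pass with all 4 libraries. Vav1 was called higher with any 1 library left out (0.60 to 0.64), Prex1 without control replicate 2 (0.60) or propranolol replicate 1 (0.60), Gnb1 without propranolol replicate 2 (0.59) and Pik3r5 without control replicate 2 (0.61). After the GC correction 2 genes of this list were called, Gnai2 (0.59) and Gnb1 (0.63), both higher.

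Among 22 tested transcription factors and inhibitors linked to chemokine genes, 2 rose and 3 fell. Nfkbia, the inhibitor of NF-kappa-B, rose from 150.1 and 165 CPM to 290.0 and 313 CPM (log2 fold change 0.93, adjusted p = 0.000169 in edgeR), and so did Jun (0.61). Jund (-0.90), Creb1 (-0.65, but 0.27 after GC correction) and Rel (-0.64, but -0.03 after GC correction) fell. The call of Jun was lost without control replicate 1 (0.47) and without propranolol replicate 2 (0.52), and that of Rel without control replicate 2 (-0.46) and without propranolol replicate 1 (-0.52). Relb (0.42) and Nfkbiz (0.09) were called higher without control replicate 2 (0.60 and 0.59), and Cebpb (0.35) without control replicate 1 (0.64). Among those with the highest CPM were Junb (0.33), Fos (0.40) and Jun. After the GC correction, Nfkbia (0.74), Nfkb1 (0.65) and Jund (-0.91) were called and Jun had 0.30. Of 9 tested factors that act on mRNA decay, 0 rose and Rc3h2 fell (-1.30, adjusted p = 0.000103 in edgeR). After the GC correction Rc3h2 had -0.30 and no call. Hnrnpd (-0.56) was also called lower without control replicate 2 (-0.70) and without propranolol replicate 1 (-0.77), and Rc3h1 (-0.55) without propranolol replicate 2 (-0.65). Zfp36 (0.20), which destabilizes chemokine mRNA, Zfp36l2 (0.11), Khsrp (0.07) and Zfp36l1 (0.32) did not pass, and the first 3 were at -0.05, -0.17 and -0.26 after GC correction.

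A gene that leads a marker list below is the one with the highest mean CPM, which is not divided by length. The label of macrophages was checked against 11 markers, all of which were tested. Their summed level was 23033 and 22081 CPM in control and 28883 and 26111 CPM in propranolol libraries, led by Lyz2, and Csf1r was the 1 changed gene (log2 fold change 0.59). Its call was lost without propranolol replicate 2 (0.55) and after GC correction (0.32), where Mrc1 was called higher instead (0.85). Of 9 monocyte markers 5 rose, Chil3 (1.28), Nr4a1 (0.90), Fn1 (0.87), Plac8 (0.79) and F13a1 (0.62), and their sum, led by Fn1, went from 3900.2 and 3578 CPM to 6390 and 5881 CPM. After GC correction Nr4a1 was at 0.56 and lost its call. The calls of Plac8 and F13a1 were lost without propranolol replicate 1 (0.58 and 0.55). The neutrophil list had 8 of 13 genes tested, of which 6 rose, and a sum of 180.1 and 198 CPM in control and 358 and 384 CPM in propranolol libraries, led by Csf3r, and 6 were higher after GC correction. Of 6 platelet markers, 4 were tested. Ppbp (2.25) and Pf4 (0.86), which are CXC chemokines, rose, whereas Itga2b (-0.52) and Gp1ba (0.13), subunits of platelet adhesion receptors, did not pass, and Gp1bb was at 0. The platelet sum of 160.0 and 145 CPM, then 292 and 264 CPM, was mostly Pf4 (155 and 141 CPM, then 284 and 251 CPM). These sums moved in the same direction as Ccl2 and Ccl24, and their part in the rise of either gene was not tested.

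Other lists were lower after propranolol. In the T cell list 8 of 9 genes fell, and the sum, led by Cd8a, was 259 and 301 CPM in control and 135 and 73.4 CPM in propranolol libraries. All 8 NK cell markers fell, and their sum, led by Gzmb, was 248 and 252 CPM, then 110.2 and 56.4 CPM. In both lists propranolol replicate 2 was the lowest library, as it was for Ccl6, Ccl7, Ccl8 and Ccl9 but not for the other 5 members, which were lowest in a control library. Of 9 genes of fibroblasts or sarcoma cells 7 fell, with a sum led by Col3a1 of 3323 and 1268 CPM in control and 719.7 and 752 CPM in propranolol libraries. Control replicate 1 stood apart in this list, and Ccl9, Ccl6 and Ccl24 were also higher there than in control replicate 2, while the other 6 members were lower there (ratios from 0.718 to 0.926). The calls of Col1a1 and Col1a2 were lost without control replicate 1 (-0.46 and -0.39), and that of Eomes, an NK cell marker, without control replicate 2 (-0.64) and without propranolol replicate 2 (-0.66). After GC correction 8 T cell, 6 NK cell and 6 fibroblast or sarcoma cell genes were lower. The part of these cells in the chemokine values was not tested.

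The remaining marker lists were those of eosinophils, mast cells, B cells, dendritic cells and endothelial cells. The eosinophil list, of interest for Ccl24, had a sum between 6.42 and 7.37 CPM in the 4 libraries, led by Siglecf, with Epx and Ear1 at 0 and 0 of its 3 tested genes changed. Of 6 mast cell markers, Kit alone was tested and it fell (-1.21), with Fcer1a and Ms4a2 at 0. The mast cell sum, led by Kit, was 8.63 and 8.73 CPM in control and 3.82 and 5.24 CPM in propranolol libraries, lower with no overlap. In the B cell list, Cd79b, its leading gene, rose (0.78) and Ms4a1 fell (-2.67) of 2 tested genes. The B cell sum was 9.98 and 13.5 CPM in control and 20.3 and 19.7 CPM in propranolol libraries, higher with no overlap. Both calls were lost after GC correction (0.52 and -1.90), and that of Ms4a1 with any 1 library left out (from -2.87 to -2.54). The dendritic cell list, led by Itgax, had 3 of 7 genes lower, Clec9a (-1.52), Xcr1 (-1.30) and Cd209a (-1.02). Its sum, from 469 to 546 CPM, overlapped between groups but was mostly Itgax (450 and 521 CPM in control, 509 and 458 CPM in propranolol libraries). The median log2 fold change over the 7 genes was -0.98, and -0.59 after GC correction. After GC correction Clec9a alone was lower (-1.08), with Xcr1 at -0.67 and Cd209a at -0.59. Without control replicate 2 the call of Clec9a was lost (-1.15), and without control replicate 1 or propranolol replicate 2 that of Cd209a (-0.75 and -0.81). In the endothelial list, led by Pecam1, Cdh5 rose (0.77) among 5 tested genes, and the sum was 49.4 and 47.7 CPM in control and 62.8 and 61.2 CPM in propranolol libraries, also higher with no overlap. The call of Cdh5 was lost after GC correction (0.61) and in 3 of the 4 fits with 1 library left out, those without control replicate 2 (0.60), propranolol replicate 1 (0.78) and propranolol replicate 2 (0.78). The part of these cells in the chemokine values was not tested either.

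Genes that respond to cell isolation moved with the treatment too. Of 10 tested, 6 rose, and their sum was 3451 and 4237 CPM in control and 5475 and 6835 CPM in propranolol libraries, led by Hspa1b. Jun is both in this list and among the transcription factors. Both this sum and Ccl2 were higher in both propranolol libraries than in both control libraries, and higher in control replicate 2 than in control replicate 1. Between the propranolol libraries the sum was higher in replicate 2 and Ccl2 in replicate 1. After the GC correction 2 of the 10 genes, Hspa1a (0.68) and Hspa1b (0.85), were called higher. Without propranolol replicate 2 the calls of Jun (0.52), Egr1 (0.47) and Dusp1 (0.52) were lost. The part of this list in the chemokine values was not tested.

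**Figure D5:**
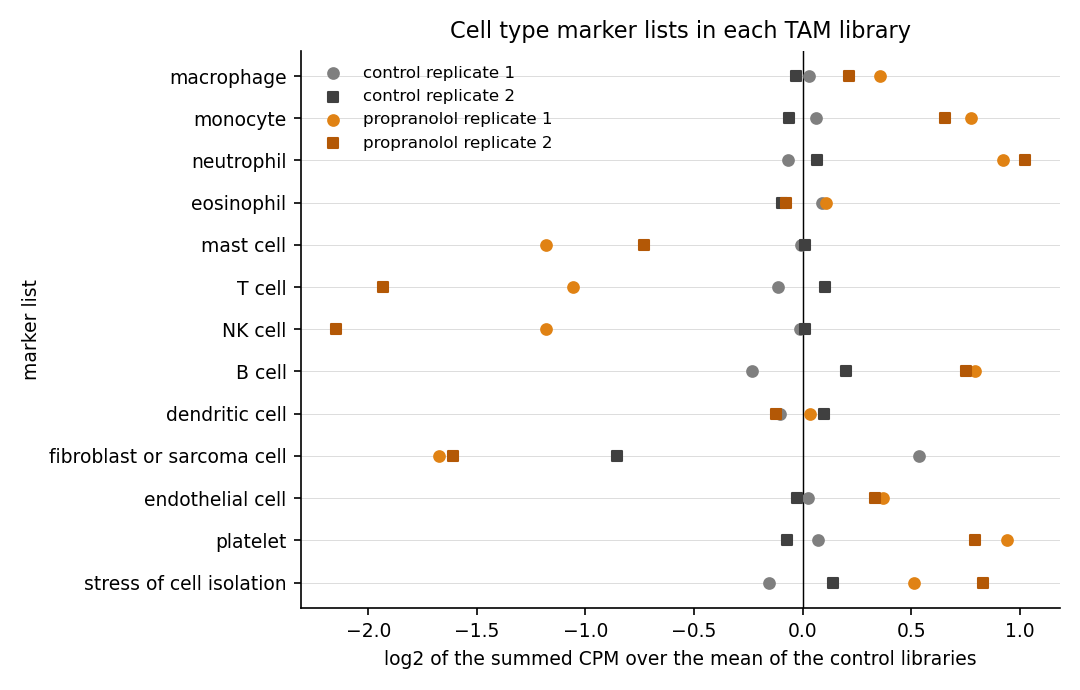
Log2 of the summed CPM of each marker list in each library over the mean of the control libraries. The T cell, NK cell and fibroblast or sarcoma cell lists lie lower in both propranolol libraries than in both control libraries, and the monocyte, neutrophil and platelet lists lie higher, the last through Pf4 and Ppbp.

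The genes with the pattern most like each changed member were found among the 8862 tested genes with a mean of at least 10 CPM, by the Euclidean distance between log2 CPM profiles over the 4 libraries, each centred on its mean. For Ccl2 these were Nle1 (distance 0.112), B430306N03Rik (0.114) and Armc6 (0.118). For Ccl24 they were Ltb4r1 (0.740), a receptor of leukotriene B4, S100a4 (0.794) and S100a8 (0.810), a calcium-binding protein of myeloid cells. The distances of Ccl24 were larger than those of Ccl2, so that none of its 3 nearest genes followed its 4 values closely.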

How the data were processed

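Counts of fragments per gene, as whole numbers, were deposited by the authors without normalization in 1 table of 4 libraries, and 0 of its columns were left out. The submitters' processing notes name STAR 2.7.1a, SAMtools 1.9, featureCounts 1.6.4 and mm10. Reads were counted on exons of a GENCODE annotation, and the release and a strand setting are not given in the sources used here. Identifiers were matched to GENCODE release M21, which named 54079 genes and left 67 unnamed.

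Counts were filtered with filterByExpr (minimum count 10), scaled with TMM factors and compared with the quasi-likelihood test of edgeR 4.0.16 in R 4.3.3, with Benjamini-Hochberg adjustment over 14688 genes. Standard errors come from the coefficient and the F statistic. DESeq2 1.42.0 was an alternative, as were its size factors, other filters, each library left out, a replicate block, a log2 fold change above 1.5 and a GC correction (the trend of log2 CPM on transcript GC content in each library, fitted as a natural spline of 5 degrees of freedom and entered as offsets). Named genes were the members, the changed and up to 4 most abundant genes of each list, the leading, changed (if 5 or fewer) and absent markers, tested genes within 50 kb, and the 3 nearest profiles. Ccr3, Nfkb1, Gnb1, Itga2b, Gp1ba, other genes called after the GC correction and genes whose call changed without a library were named after their values were seen. Some genes that this rule names are not reported here. Members and lists were chosen with earlier results of these data known. On simulated counts with the depth and common dispersion of this comparison (14339 genes), edgeR recovered 76.6% of genes changed by 1 on the log2 scale, 95.5% at 1.5 and 97.0% at 2, with 10 false calls. The simulation gave every gene the same dispersion, changed few genes and held no trend with GC content. These rates therefore check the code and do not give the power or the false calls in the real libraries. The lowest count of a member was 71, for Ccl24.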

Additional observations from a re-analysis of the deposited data

How the results depend on the processing

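At the 1.5-fold threshold the rise of Ccl2 passed the test under all 11 alternative fits, with log2 fold changes from 0.998 to 1.56. A threshold of 1.5 on the log2 scale was applied only to the edgeR fit without GC correction or block. Ccl2, at 1.12 there, did not pass it. A group left with 1 library takes its spread from the other group. With 1 library omitted in turn, between 2 and 4 members were changed, and the log2 fold change ranged from 0.70 to 2.20 for Ccl24, 0.18 to 0.61 for Ccl4, -0.19 to 0.30 for Ccl6, -0.97 to -0.22 for Ccl7, -0.49 to 0.29 for Ccl8, -0.87 to -0.13 for Ccl9 and -0.05 to 0.44 for Ccl12. Ccl24 lost its call only without propranolol replicate 1. Under the GC correction, alone and with the replicate block, 1851 and 2120 of all genes and 8 and 9 genes of the 5 pathway lists were changed (4084 and 16 without it), Ccl12 rose (0.84 and 0.83), and Ccl8 (0.12 and 0.079) and Ccl9 (0.16 and 0.13) turned. Without the filter, Ccl8 was at 0.0098. A log2 fold change above 1.5 left 1 member, Ccl24, with 728 genes and 1 list gene. The cause was not tested, except that this threshold is stricter by construction.

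The replicate numbers are shared between groups, but with 2 pairs nothing shows that they pair the libraries (correlation of deviations 0.169 for the same number). With the replicate block Ccl7 was called at -0.60, making 3 members, and 4362 of all genes were changed.

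With the length of the longest transcript, mean levels were 1043 TPM for Ccl12, 727 for Ccl2, 704 for Ccl8, 433 for Ccl7, 234 for Ccl4, 195 for Ccl3 and 184 for Ccl9, so that Ccl2 passed Ccl8 in the order. The sums were 4035 TPM in control and 3876 TPM in propranolol libraries.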

Other observations

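The propranolol libraries also differed from each other in the chemokines. Of the 9 members, 7 had a higher CPM in propranolol replicate 1 than in replicate 2, against 54.9% of all tested genes. The ratio of replicate 1 to replicate 2 was 2.76 for Ccl24, 1.69 for Ccl8, 1.64 for Ccl7, 1.63 for Ccl9, 1.38 for Ccl12 and Ccl6 and 1.18 for Ccl2, and it was 0.994 for Ccl3 and 0.971 for Ccl4. Between the control libraries, 3 of 9 were higher in replicate 1, against 50.4% of tested genes. Propranolol replicate 1 was also the deepest library.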
